A study of Homo sapiens with 19 samples.

Results

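BX795, a kinase inhibitor, was given together with an siRNA against the RNA editing enzyme ADAR, and RNA from these cells was compared with RNA from cells given a control siRNA. The comparison took 5 of the 19 libraries of the series, chosen by their labels: 2 libraries of BX795 with ADAR siRNA (called the combined treatment below) and the 3 control libraries prepared for the BX795 and interferon arms. All libraries came from differentiated HepaRG cells, a human hepatic line that matures into hepatocyte-like and biliary-like cells. The series asks how loss of RNA editing proteins changes the transcriptome and the genes of drug handling. Combined wells received ADAR siRNA at 20 nM and BX795 at 1 µM, and control wells received the negative control siRNA siNC at 20 nM and no inhibitor. Medium was replaced 24 h after transfection and again at 48 h, the second time by a serum-free induction medium, and BX795 was kept in throughout. No source used here gives the time of harvest or says whether replicates were separate cultures, so p-values measure only the spread between libraries. Side by side stand 3 libraries of BX795 alone from the same batch (no source used here says whether these wells got siNC), and 3 libraries each of siNC and of ADAR siRNA without BX795 from the other batch. Control and combined wells shared the cell line, the transfection and the media.

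ADAR deaminates adenosines in double-stranded RNA, which marks the cell's own duplexes as self. Where it is missing, unedited duplexes are bound by the sensor MDA5 (gene IFIH1), which signals through MAVS to the kinases TBK1 and IKK epsilon. These phosphorylate IRF3, interferon is made, and its receptors switch on interferon-stimulated genes through JAK kinases and STAT proteins. BX795 inhibits TBK1 and IKK epsilon, and it was first described as an inhibitor of PDK1 (gene PDPK1), a kinase of insulin signalling. In the liver, inflammatory signals are known to shift hepatocytes away from drug metabolism and towards secretion of acute phase proteins.

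Total counts were 13.1 to 22.8 M in the control libraries and 26.8 to 34.2 M in the combined libraries. Of 20718 genes tested with edgeR, 6829 (33.0%) were called at a Benjamini-Hochberg adjusted p below 0.05, 3505 of them higher (16.9%) and 3324 lower (16.0%) with the combined treatment. A fold change of at least 2 was reached by 1755 called genes (8.47%), 553 higher and 1202 lower. The median log2 fold change of all genes was -0.03. Libraries of the groups did not overlap for 27.1% of the genes on the higher side and 26.6% on the lower side. Without combined replicate 2 the count was 1982, and without any 1 of the other 4 libraries it was 4907 to 8553. Libraries within a group differed widely: the chi-square per gene was 64.4 between the combined libraries and up to 45.4 between controls, against 5.59 to 18.2 between replicates of the other batch.

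Base composition differed between the groups, with every control above every other library of the batch. Genes over 60% GC stood above genes under 40% GC, in mean log2 level centred over the batch, by 0.23, 0.91 and 0.75 in the controls. The values were 0.01 and -0.45 in the combined libraries and -0.55 to -0.19 with BX795 alone. They were -0.33 and 0.07 in the interferon alpha libraries of the batch, whose labels name neither BX795 nor ADAR siRNA. Genes under 35% GC were called higher in 35.8% and lower in 2.39% of cases, and genes over 60% GC in 1.14% and 43.3%. With each library's GC trend removed, 5891 genes (28.4%) were called, 3059 higher (14.8%) and 2832 lower (13.7%), and the bins were level. Only 4352 genes were called both as counted and with the correction. The part of base composition in the uncorrected fold changes was not tested, and for each list tested against the controls the count with the correction is given too. Those list counts stand beside 16.9% higher and 16.0% lower of all genes as counted, and beside 14.8% and 13.7% with the correction. Counts against BX795 alone stand beside 1.49% higher and 2.17% lower of all genes, or 4.67% and 4.58% with the correction. Counts for the combined response minus the ADAR siRNA response stand beside 16.0% higher and 12.8% lower. Counts after ADAR siRNA without BX795 stand beside 21.8% of all genes called in either direction. No list was tested as a set.

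**Figure D1:**
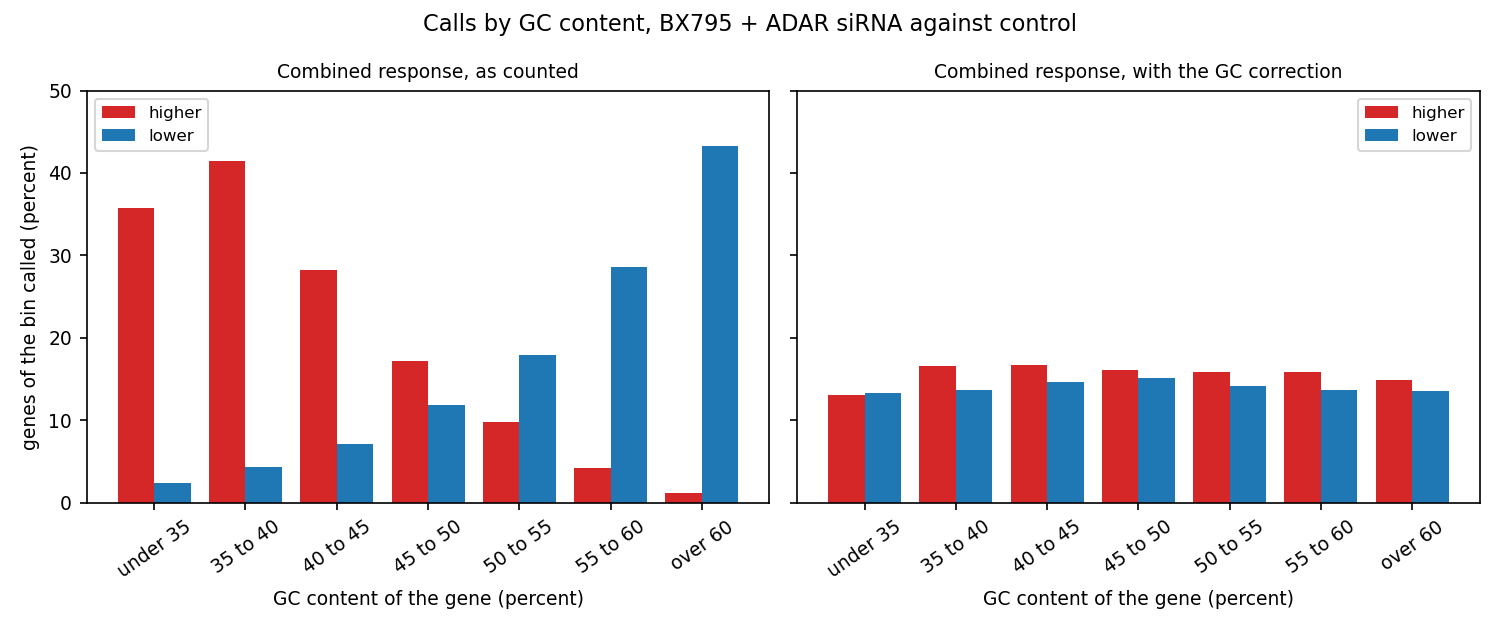
Share of genes called higher (red) and lower (blue) with the combined treatment (vertical axis, percent) in 7 bins of gene GC content (horizontal axis, percent), as counted (left) and with the GC correction (right). As counted, higher calls fall from 35.8% under 35% GC to 1.14% over 60% GC, and with the correction the bins range from 13% to 16.7% higher.

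ADAR itself (ENSG00000160710.19; chromosome 1, 154582057 to 154627997 in GRCh38.p14) checked the labels. Its level was 266, 259 and 215 counts per M counts of the library (CPM) in the controls and 56.1 and 59.9 CPM with the combined treatment. Both combined libraries lay far below every control, a log2 fold change of -2.09 ± 0.12 (standard error, n = 2 against 3; edgeR adjusted p = 4.32e-06). Fold changes below are on the same log2 scale with their standard errors, and adjusted p values come from edgeR's quasi-likelihood test. BX795 alone left ADAR at 273, 302 and 294 CPM, and against these 3 libraries the log2 fold change was -2.32 ± 0.12. Without BX795 the log2 fold change of ADAR after the same siRNA was -2.02 ± 0.08, and the 2 knockdowns did not differ detectably (difference -0.05 ± 0.12, edgeR adjusted p = 0.811). ADARB1, which encodes the related editing enzyme ADAR2, stood at 67.3, 64.1 and 61.5 CPM in the controls and 47.8 and 45.2 CPM in the combined libraries. It fell by 0.47 ± 0.09 (adjusted p = 0.00394), a call that was lost without combined replicate 2 (adjusted p = 0.0645), and it was 49.5, 54.9 and 55 CPM with BX795 alone.

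**Figure D2:**
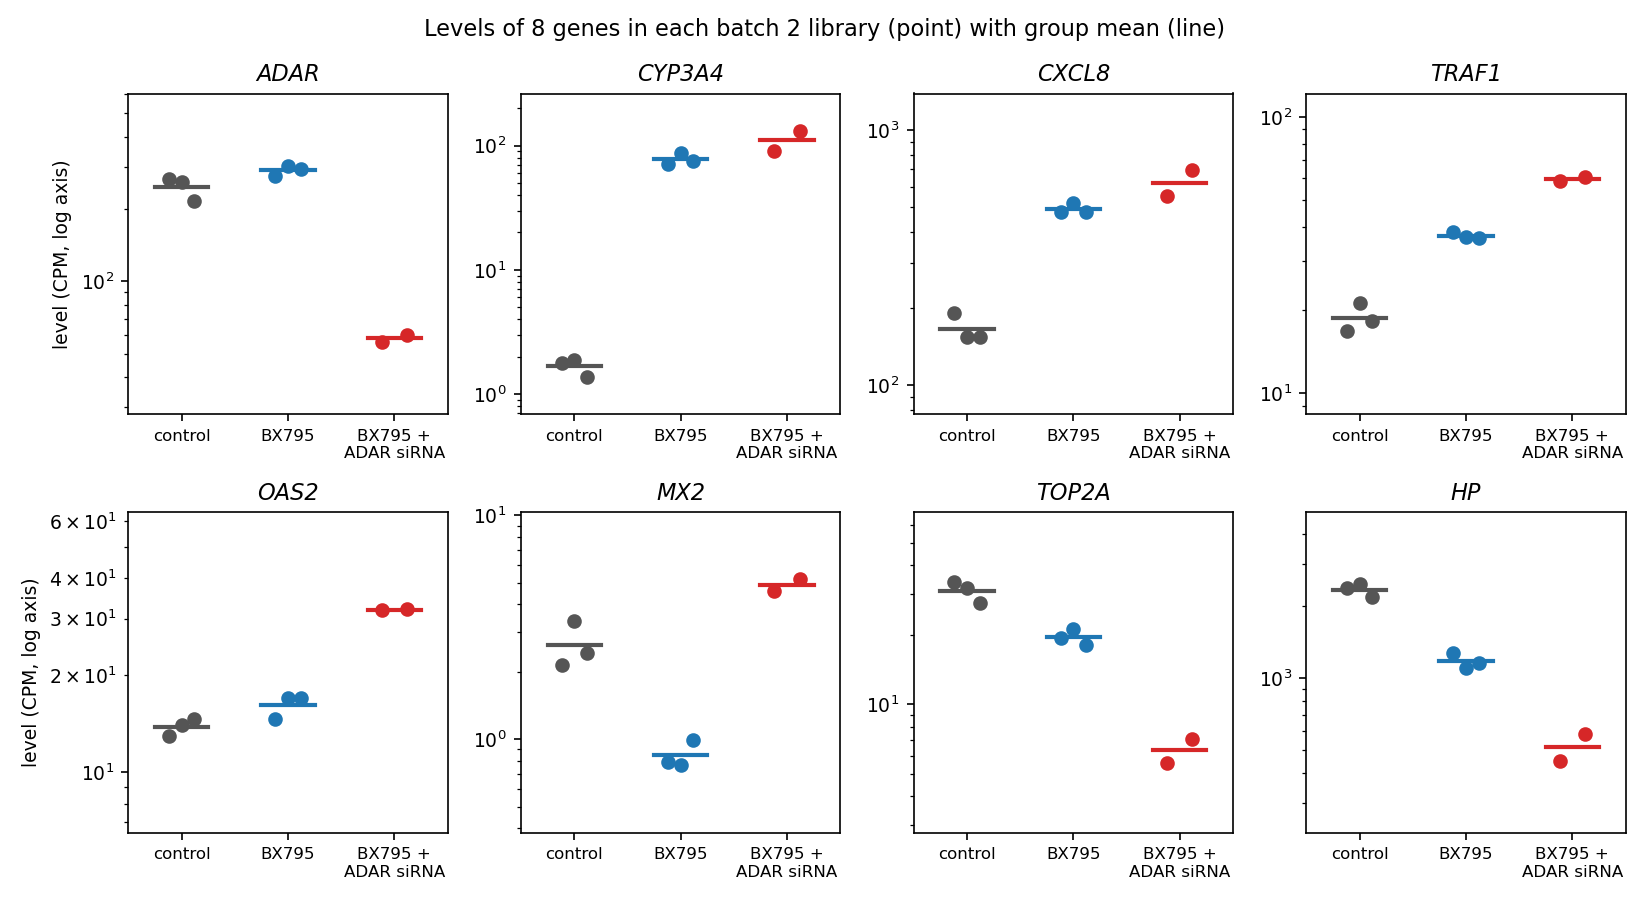
Level of 8 genes (CPM, log axis) in each control, BX795 and combined library, one point per library with the group mean as a line. ADAR is at most 59.9 CPM in the combined libraries and at least 215 CPM elsewhere, CYP3A4 is at most 1.88 CPM in the controls and at least 70.8 CPM in the other groups, and OAS2 and TRAF1 are highest in the combined libraries.

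Type I interferon-stimulated genes were higher with the combined treatment than in the controls, by modest folds. Of 56 tested members, 27 rose and 5 fell, beside 16.9% and 16.0% of all genes, and the list median was 0.38 on the log2 scale. Combined replicate 2 carried part of that count, with 18 higher and 1 lower without it. Without any 1 of the other libraries 26 to 29 were higher and 1 to 7 lower. The GC correction gave 25 higher and 4 lower. ADAR is a member of the list and 1 of the 5 that fell. The others were IFITM2 (-0.34), IFITM3 (-0.40), LGALS3BP (-0.45) and UBA7 (-0.44), each a call lost without combined replicate 2 or control replicate 2, and some also without combined replicate 1 or control replicate 3 (adjusted p = 0.0543 to 0.266). These, like other members of counts of 5 or fewer below that the naming rule did not select, are named after their values were seen.

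The start sites of several risers carry the sequence through which interferon acts. The interferon-stimulated response element (ISRE), bound by a complex of STAT proteins with IRF9, was searched as 2 copies of GAAA with any 2 bases between them, on both strands, overlapping matches included. It occurred in 31 of the 47 list members with a RefSeq promoter of 300 bases (66.0%), and in 3.57% of all 34943 promoters. Of the 31 with a match 17 rose, and of the 16 without one 5 rose. Windows of 80 bases that hold every match of the promoter are shown for genes picked among the called risers with a match. They are an antiviral GTPase, a pair of tetratricopeptide effectors and the light chain of MHC class I (gene strand, 5′ to 3′, GRCh38.p14, RefSeq), with the matched letters in capitals.
MX1, chr21:41420528-41420607, plus strand: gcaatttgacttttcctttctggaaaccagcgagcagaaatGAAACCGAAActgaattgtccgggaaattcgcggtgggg
IFIT3, chr10:89327823-89327902, plus strand: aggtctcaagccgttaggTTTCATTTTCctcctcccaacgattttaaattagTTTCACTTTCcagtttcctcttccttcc
IFIT1, chr10:89392478-89392557, plus strand: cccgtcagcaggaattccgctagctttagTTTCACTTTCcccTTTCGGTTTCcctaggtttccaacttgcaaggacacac
B2M, chr15:44711341-44711420, plus strand: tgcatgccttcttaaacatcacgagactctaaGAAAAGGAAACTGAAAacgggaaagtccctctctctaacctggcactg

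OAS2, a synthetase of an antiviral second messenger, stood at 13, 14 and 14.6 CPM in the controls and 31.8 and 32.1 CPM in the combined libraries. The combined libraries were alike and above every control, a rise of 1.21 ± 0.10 (adjusted p = 2.99e-05). MX1, a GTPase that blocks viral replication, was 14.1, 18.1 and 15.2 CPM and 32.4 and 28.5 CPM in the same order, without overlap (0.95 ± 0.13, adjusted p = 0.00051). IFIT2, which binds viral RNA, went from 11.5, 12.2 and 9.04 CPM to 22.6 and 29.9 CPM (1.26 ± 0.15). Its relative IFIT3 went from 17.5, 21.7 and 18.5 CPM to 33.2 and 40 CPM (0.93 ± 0.12). All 4 genes separated the groups completely. IFIT1 rose by 0.75 ± 0.12, OAS1 by 0.97 ± 0.16, IFI27 by 0.58 ± 0.14 and OASL by 0.90 ± 0.26, the last a call lost without combined replicate 2 (adjusted p = 0.137) or control replicate 1 (adjusted p = 0.0563). IFI44L rose by 0.77 ± 0.14, and with the GC correction its value was 0.39 ± 0.16 (adjusted p = 0.0811). Other members of the same programme did not pass. The ubiquitin-like modifier ISG15 was 18.8, 34.3 and 29.6 CPM in the controls and 29.1 and 16.5 CPM with the combined treatment, groups that overlapped (-0.27 ± 0.29, adjusted p = 0.51). IFI6 (-0.74 ± 0.34), USP18 (0.22 ± 0.15), EIF2AK2 (0.05 ± 0.11), DHX58 (0.10 ± 0.16), IRF7 (0.23 ± 0.25) and RSAD2 (1.54 ± 0.88, at most 0.307 CPM in any of the 5 libraries) had adjusted p values from 0.111 to 0.785.

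The interferon-stimulated genes rose less with the combined treatment than after ADAR siRNA alone. In the other batch ADAR siRNA raised 50 of the 56 members and lowered 1, ADAR itself, with a median of 1.00, where 21.8% of all 23122 genes tested were called, 2537 higher and 2504 lower. The difference between the responses was called lower with BX795 for 39 members and higher for 1 (B2M), beside 12.8% and 16.0% of all genes, with a median of -0.73. All genes called for that difference numbered 6649, and 3121 without combined replicate 2. Without any 1 of the 11 libraries, 35 to 43 members were called lower, 35 to 39 of them among the same 39. For MX1 the ADAR siRNA response was 3.61 ± 0.15 without BX795 and the difference -2.64 ± 0.22 (adjusted p = 1.97e-07). MX1 stood at 11, 10.9 and 13 CPM in the siNC and at 108, 145 and 176 CPM in the ADAR siRNA libraries of that batch. Its levels in the batch 2 controls, given above, were somewhat higher and come from a separate scaling. For OAS2 the difference was -1.68 ± 0.17, for IFIT3 -1.51 ± 0.22, for ISG15 -2.31 ± 0.34 and for MX2 -3.63 ± 0.33. IFIT2 differed less, by -0.92 ± 0.22. The contrast crosses batches that differ in depth, replicate spread and liver gene levels. Its ADAR siRNA arm has no library of the same batch, so batch and presence of BX795 cannot be told apart in it. That difference also contains any effect of BX795 itself, because the batch 2 controls got no inhibitor. With the GC correction 5623 genes were called for it, 4038 of them among the 6649, and its list counts are given as counted only. These limits hold for every difference between the responses below.

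**Figure D3:**
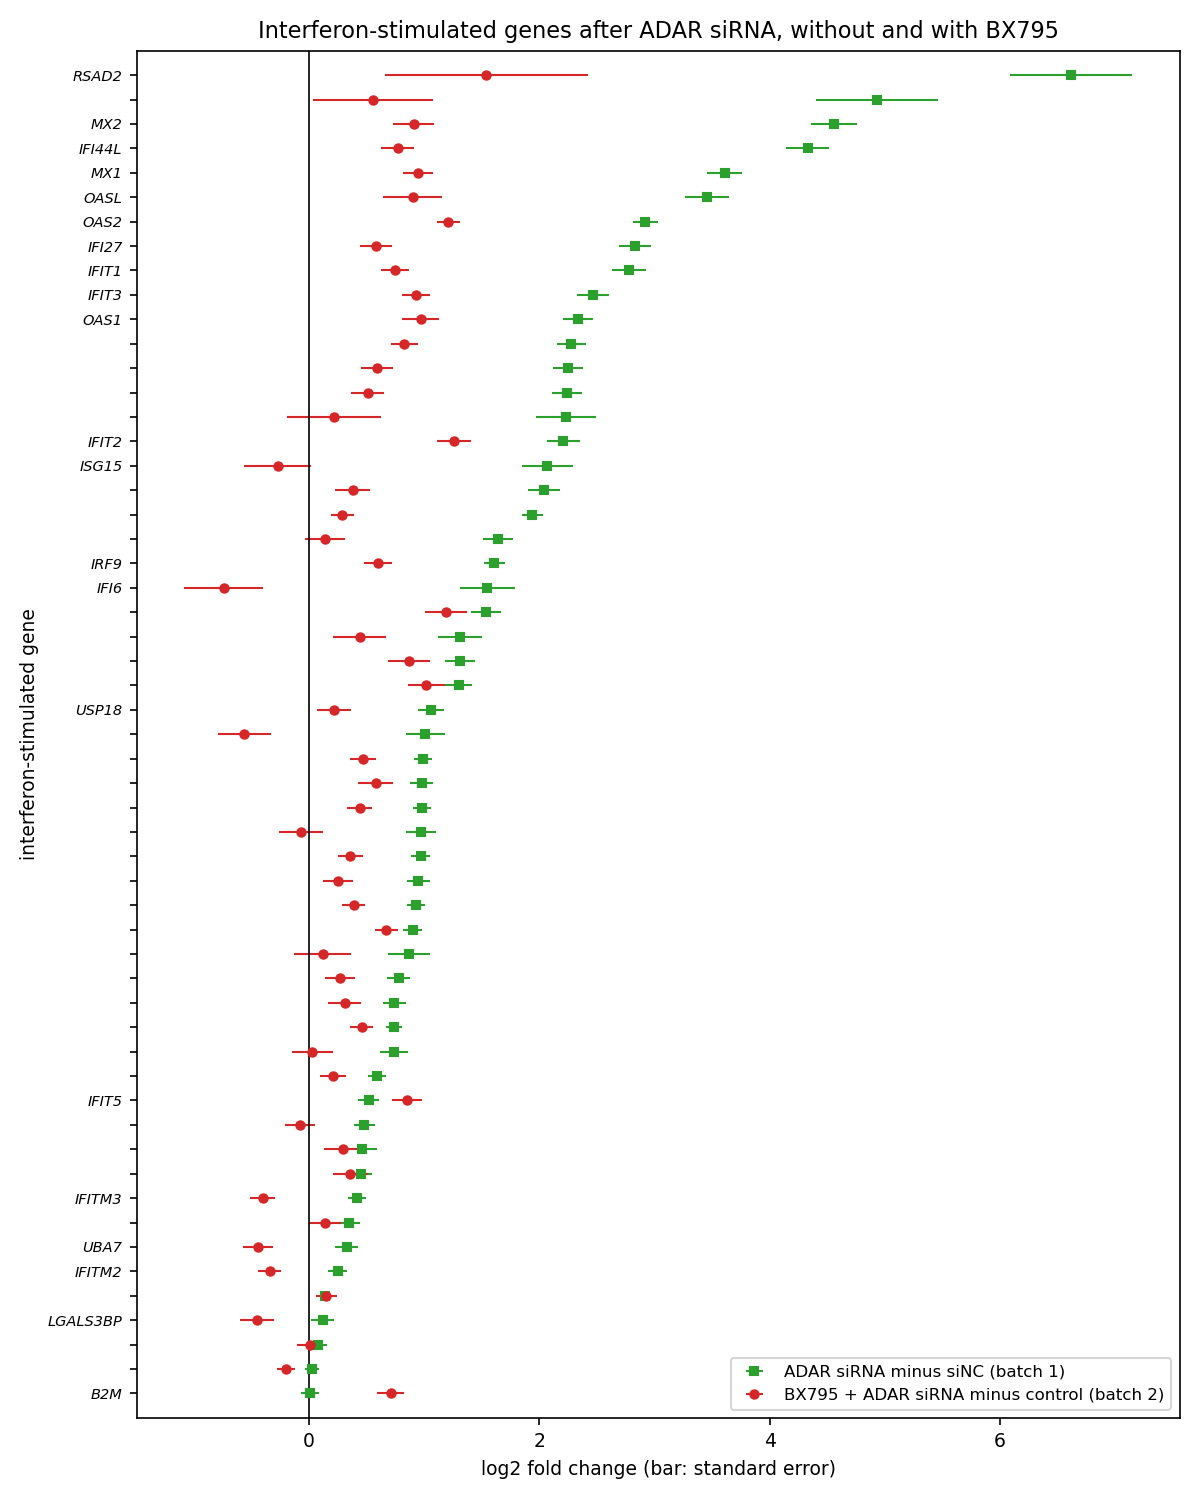
Log2 fold change (horizontal axis, bar for the standard error) of each tested interferon-stimulated gene other than ADAR. Genes are ordered by the batch 1 value and labelled where the text names them. Green squares are ADAR siRNA against siNC without BX795 (batch 1). Red circles are the combined treatment against controls without inhibitor (batch 2), so they include any effect of BX795 itself. Red circles lie left of the green squares for most genes, for MX1 at 0.95 and 3.61, while B2M and IFIT5 lie to the right.

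Against BX795 alone, whose labels name no siRNA, 17 of the 56 members were higher and only ADAR was lower, beside 1.49% and 2.17% of all genes, with a median of 0.32. That comparison called 758 genes in all (3.66%), 308 higher and 450 lower. It called 181 without combined replicate 1, 329 without combined replicate 2, and 452, 331 and 337 without BX795 replicates 1, 2 and 3. With the GC correction it called 1916 genes (9.25%), 967 higher (4.67%) and 949 lower (4.58%), and 24 members were higher and 1 lower. Without any 1 of its 5 libraries 8 to 10 of the 17 members stayed higher. MX2, a nuclear relative of MX1, was 2.15, 3.36 and 2.44 CPM in the controls, 0.79, 0.764 and 0.99 CPM with BX795 alone and 4.61 and 5.18 CPM with the combined treatment. The combined libraries were the highest and the BX795 libraries the lowest. It was higher than with BX795 alone by 2.51 ± 0.19 (adjusted p = 0.000173) and than in the controls by 0.91 ± 0.18 (adjusted p = 0.00331). OAS2 was higher than with BX795 alone by 0.98 ± 0.10, MX1 by 1.29 ± 0.13 and IFIT1 by 1.13 ± 0.12. BX795 alone, measured against the same 3 controls, had 13 members higher and 16 lower with a median of 0.05, beside 20.2% and 21.9% of all genes.

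Sensors of foreign RNA and the kinase relay were mixed, beside 16.9% of all genes higher and 16.0% lower. Of 17 sensors and adaptors 7 rose and 2 fell (3 and 1 without combined replicate 2; 8 and 3 with the GC correction). RIGI, the sensor of short RNA ends, stood at 7.71, 4.63 and 5.70 CPM in the controls and 23 and 24.8 CPM with the combined treatment, a clear gap (1.96 ± 0.17, adjusted p = 3.42e-05). BX795 alone gave 17.6, 19.6 and 15.8 CPM. The helicase DDX3X rose by 0.67 ± 0.12. IFIH1 rose by 0.50 ± 0.10, and with the GC correction its value was 0.28 ± 0.10 (adjusted p = 0.0565); the call was also lost without combined replicate 2 (adjusted p = 0.0696). STING1, the adaptor of DNA sensing, was 22, 21 and 20.9 CPM in the controls, 12 and 10.8 CPM with the combined treatment and 7.90, 8.08 and 7.62 CPM with BX795 alone. It was lower than in every control (-0.91 ± 0.11) and yet higher than with BX795 alone (0.53 ± 0.11, adjusted p = 0.0186), the latter a call lost without any 1 of the 5 libraries (adjusted p = 0.0597 to 0.263). The other member that fell was MAVS (-0.69 ± 0.14), a call lost without combined replicate 2 (adjusted p = 0.081).

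Of the kinases that BX795 inhibits, TBK1 and PDPK1 were not called at the mRNA level. TBK1 was 25.7, 20.3 and 24.1 CPM and 25.1 and 28.6 CPM (0.20 ± 0.13, adjusted p = 0.265), and PDPK1 was 94.6, 114 and 105 CPM and 106 and 103 CPM (0.00 ± 0.10, adjusted p = 0.989), with overlapping groups in both cases. Of 11 genes of the relay 4 rose and 1 fell (1 and 1 without combined replicate 2; 4 and 2 without control replicate 1; 5 and 1 with the GC correction). The adaptors OPTN and TANK rose by 0.57 ± 0.10 and 0.73 ± 0.14, IKBKE, the gene of IKK epsilon, by 0.44 ± 0.12, and the TBK1 adaptor AZI2 by 0.41 ± 0.13. The call of TANK was lost without combined replicate 2 (adjusted p = 0.0546), as was that of IKBKE (adjusted p = 0.126). AZI2 lost its call without combined replicate 2 (adjusted p = 0.317) or control replicates 2 or 3 (0.0669 and 0.058), and it was 0.02 ± 0.08 with the GC correction (adjusted p = 0.886). TBKBP1, which binds TBK1, fell from 24.6, 35.2 and 36 CPM to 14.7 and 10.4 CPM (-1.34 ± 0.21).

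Interferon genes were barely detected. Of 11 such genes 5 had 0 counts in every library of the batch and the single one tested was IFNE (0.64 ± 0.47, adjusted p = 0.312). Downstream of the receptors, 8 of 21 genes rose and 3 fell (3 and 3 without combined replicate 2; 8 and 5 without control replicate 1 and with the GC correction). SOCS3, a feedback inhibitor of JAK kinases, was 40.1, 59.2 and 52.3 CPM in the controls and 9.06 and 8.96 CPM with the combined treatment. Both combined libraries lay far below the lowest control (-2.48 ± 0.17, adjusted p = 7.99e-06). SOCS1 fell by 2.35 ± 0.25. After ADAR siRNA without BX795, SOCS3 was at -0.16 ± 0.11 and SOCS1 at 0.43 ± 0.19, and the differences from those responses were -2.30 ± 0.18 and -2.75 ± 0.29. Neither gene was called in the combined libraries against BX795 alone (-0.33 and -0.53, edgeR adjusted p = 0.365 and 0.309). With the GC correction both were called lower there (-0.42 and -0.70, edgeR adjusted p = 0.0275 and 0.0152). JAK1 rose by 0.72 ± 0.10, JAK2 by 0.90 ± 0.13, and IRF9, a subunit of the factor that binds the ISRE, by 0.60 ± 0.12. IRF9 was also higher than with BX795 alone (0.83 ± 0.12).

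Chemokines and genes of the NF-kB feedback loop rose. NF-kB is a transcription factor of inflammation whose own inhibitors are among its targets. Of 18 feedback genes 11 rose and 1 fell with a median of 0.40, and of 22 tested chemokines and cytokines (26 listed) 12 rose and 1 fell with a median of 0.56. Without combined replicate 2 the counts were 7 and 1, and 8 and 1. With the GC correction they were 14 and 1, and 11 and 1. CXCL8, which attracts neutrophils, was 191, 154 and 155 CPM in the controls and 549 and 694 CPM in the combined libraries. The groups were far apart (1.90 ± 0.13, adjusted p = 7.95e-06), and BX795 alone gave 478, 519 and 478 CPM. CCL20, a ligand of CCR6, went from 11.4, 9.73 and 6.60 CPM to 40.9 and 67.6 CPM (2.53 ± 0.23). CXCL1, a further neutrophil attractant, went from 84.3, 77.9 and 77.6 CPM to 221 and 295 CPM (1.69 ± 0.13). The monocyte attractant CCL2 went from 62.8, 54.5 and 45.8 CPM to 153 and 210 CPM (1.73 ± 0.15), and it was the only member of its list higher than with BX795 alone (0.80 ± 0.15, adjusted p = 0.0142), a call lost without combined replicate 2 (adjusted p = 0.158) or BX795 replicate 3 (adjusted p = 0.0763). IL6 was lower than with BX795 alone (-1.14, edgeR adjusted p = 0.00274), and its value without combined replicate 1 was -1.04. With the GC correction 3 members were higher and 1 was lower than with BX795 alone. For CXCL8, CCL20, CXCL1 and CCL2 the lower combined library exceeded the highest control. CXCL10 and CXCL11, chemokines for T cells, rose by 1.63 ± 0.20 and 2.77 ± 0.32. TNFSF10, the death ligand TRAIL, fell by 0.86 ± 0.13.

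TRAF1, an adaptor of TNF receptors, was 16.8, 21.3 and 18.3 CPM in the controls, 38.2, 36.9 and 36.4 CPM with BX795 alone and 58.7 and 60.7 CPM with the combined treatment. The 3 groups did not overlap and the combined libraries were highest, 1.67 ± 0.11 above the controls and 0.68 ± 0.10 above BX795 alone (adjusted p = 0.00464). TNFAIP3 (A20), which shuts off NF-kB signalling, rose from 134, 153 and 129 CPM to 330 and 402 CPM (1.40 ± 0.11), and the apoptosis inhibitor BIRC3 from 746, 543 and 605 CPM to 1725 and 2161 CPM (1.62 ± 0.14). CYLD, a deubiquitinase, rose by 0.72 ± 0.11, and BCL3, a nuclear cofactor of NF-kB, fell by 1.40 ± 0.19. TRAF1 was the only feedback gene called against BX795 alone as counted, and with the GC correction 3 were higher and 1 lower. In BX795 alone against the same controls, 11 feedback genes were higher and 2 lower. In the ADAR siRNA response without BX795, 8 feedback genes and 8 chemokines rose, beside 21.8% of all genes called in either direction. Compared with that response, CXCL8 rose by 1.29 ± 0.14 more, CXCL1 by 1.70 ± 0.16 more and CCL20 by 1.82 ± 0.29 more, while CCL5 rose less (-3.13 ± 0.56).

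The kappa B motif, to which NF-kB binds, was searched as GGGA, any base and TTTCC on both strands, with overlaps counted. It lay in the promoters of 9 of 29 matched members of both lists (31.0%) and in 0.558% of all promoters. Of the 9 with a match 6 rose, and of the 20 without one 12 rose. Windows of 80 bases are shown for a chemokine and a feedback inhibitor (gene strand, 5′ to 3′, GRCh38.p14, RefSeq, match in capitals).
CXCL1, chr4:73869279-73869358, plus strand: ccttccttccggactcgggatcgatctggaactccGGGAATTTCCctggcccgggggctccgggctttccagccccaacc
TNFAIP3, chr6:137867157-137867236, plus strand: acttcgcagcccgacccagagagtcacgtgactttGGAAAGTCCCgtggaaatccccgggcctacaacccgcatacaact

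Genes of the cell cycle fell together. Of 28 members 22 fell and 1 rose, with a median of -1.13, the same counts with the GC correction and 17 to 22 lower without any 1 of the 5 libraries. TOP2A, which untangles replicated DNA, was 34, 31.8 and 27.5 CPM in the controls, 19.4, 21.1 and 18 CPM with BX795 alone and 5.57 and 7.08 CPM with the combined treatment. The groups did not overlap and the combined libraries were lowest (-2.29 ± 0.15 against the controls, adjusted p = 7.15e-06). The proliferation marker MKI67 followed the same order, at 40.4, 39.7 and 31.5 CPM in the controls, 21, 19.7 and 18.3 CPM with BX795 alone and 6.53 and 8.45 CPM with the combined treatment (-2.31 ± 0.16). RRM2, a subunit of the reductase that makes deoxynucleotides (-2.45 ± 0.24), and the kinetochore gene CENPF (-2.06 ± 0.20) fell. The single riser was CCND1, the cyclin of entry into the cycle, at 160, 162 and 166 CPM in the controls and 377 and 378 CPM with the combined treatment (1.21 ± 0.08). Against BX795 alone 10 members were lower (3 without combined replicate 1, 7 to 9 without any other library, and 12 with the GC correction) and CCND1 was higher (0.73 ± 0.08). TOP2A (-1.62 ± 0.14) and MKI67 (-1.39 ± 0.15) were among the lower ones.

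After ADAR siRNA without BX795, where 21.8% of all genes were called in either direction, the cell cycle list moved the other way. There 17 members rose and 1 fell with a median of 0.37, and the difference between the responses was called lower with BX795 for 25 of 28 members, whichever of the 11 libraries was left out. TOP2A stood at 0.40 ± 0.09 without BX795, and the difference was -2.67 ± 0.15 (adjusted p = 4.16e-09). Histone genes of the replication-dependent kind, whose mRNA is made in S phase and lacks a poly(A) tail, fell as well. Of 20 tested (22 listed) 14 fell and 2 rose (10 and 0 without combined replicate 2, 10 and 2 without combined replicate 1, 14 and 3 with the GC correction), with a median of -1.09. H3C2 went from 19.1, 30.7 and 21.7 CPM to 2.61 and 3.75 CPM (-2.89 ± 0.29), and H1-5, a linker histone, from 8.83, 15.9 and 13.3 CPM to 1.46 and 1.43 CPM (-3.12 ± 0.36). Both combined libraries were below every control for each of them. H2BC4 (0.50 ± 0.16) and H2BC21 (0.79 ± 0.16) were the risers, calls lost without combined replicate 2 (adjusted p = 0.451 and 0.0639) and, for H2BC4, without control replicate 2 or 3 (0.0706 and 0.068). Counts of near-identical histone copies depend on how reads were divided among them.

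Genes of the late cycle are often held back through the cell cycle homology region, TTTGAA or TTCAAA, at which the repressor complex DREAM acts. The letters lay in 8 of 23 matched list members (34.8%) and in 15.2% of all promoters, on either strand and with overlaps counted. Of the 8 with a match 7 fell, and of the 15 without one 12 fell. Windows of 80 bases are shown for both proliferation genes described above (gene strand, 5′ to 3′, GRCh38.p14, RefSeq, matches in capitals).
TOP2A, chr17:40418027-40418106, minus strand: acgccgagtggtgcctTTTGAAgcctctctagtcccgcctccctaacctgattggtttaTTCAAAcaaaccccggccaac
MKI67, chr10:128126419-128126498, minus strand: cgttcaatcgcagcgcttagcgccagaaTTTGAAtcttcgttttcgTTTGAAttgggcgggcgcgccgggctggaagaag

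CYP3A4, the enzyme that oxidises the broadest range of drugs, was among the largest risers of all genes. It was 1.77, 1.88 and 1.38 CPM in the controls, 90.2 and 131 CPM with the combined treatment and 70.8, 87.6 and 74.8 CPM with BX795 alone. Every library with BX795 lay far above every control. The combined rise was 6.02 ± 0.22 (adjusted p = 1.81e-07), and the difference from BX795 alone did not pass (0.51 ± 0.16, adjusted p = 0.125). Controls of the other batch stood far higher, at 228, 236 and 210 CPM, and ADAR siRNA raised them to 1053, 1011 and 1112 CPM (2.24 ± 0.11). The difference between the responses, 3.81 ± 0.22, was therefore taken from unequal starting levels.

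The phase I enzymes as a list went both ways, beside 16.9% of all genes higher and 16.0% lower. Of 43 tested (48 listed) 10 rose and 15 fell, with a median of -0.19 (5 and 12 without combined replicate 2, 11 and 19 with the GC correction). CYP1A1, an enzyme induced through the aryl hydrocarbon receptor, rose from 2.20, 1.21 and 1.06 CPM to 10 and 8.39 CPM (2.55 ± 0.25), while CYP1B1, a relative of CYP1A1, fell from 113, 128 and 125 CPM to 47.8 and 50.4 CPM (-1.31 ± 0.10). CYP2B6 rose from 1.21, 1.61 and 0.733 CPM to 3.65 and 3.27 CPM (1.52 ± 0.25). None of the 3 had overlapping groups. CYP1A2 rose by 1.86 ± 0.51, a call lost without combined replicate 1 or 2 or control replicate 2 (adjusted p = 0.063, 0.0786 and 0.0514). CYP2C8, which oxidises paclitaxel, was 8.32, 9.33 and 6.03 CPM in the controls, 7.30, 7.42 and 6.67 CPM with BX795 alone and 2.11 and 3.04 CPM with the combined treatment. Only the combined libraries were low, with -1.61 ± 0.22 against the controls and -1.46 ± 0.21 against BX795 alone (adjusted p = 0.0035, and 0.0515 without combined replicate 1).

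Alcohol dehydrogenase ADH4 (-2.74 ± 0.29), xanthine dehydrogenase XDH (-2.08 ± 0.22) and the ethanol-oxidising CYP2E1 (-2.25 ± 0.33) fell. CYP3A5 rose by 0.46 ± 0.12, a call lost without combined replicate 2 (adjusted p = 0.207) and with the GC correction, where it was 0.21 ± 0.08 (adjusted p = 0.0523). CYP3A7 (-0.17 ± 0.31), CYP2C19 (-0.74 ± 0.34) and CYP2D6 (0.65 ± 0.38) did not pass (adjusted p from 0.116 to 0.706). CYP2A6 had too few counts to be tested. Against BX795 alone 3 phase I genes were higher (ALDH3A1, EPHX1 and MAOB, with EPHX1 lost without any 1 of the 5 libraries and MAOB without combined replicate 2 or BX795 replicates 2 or 3) and 6 lower. Without combined replicate 1 these were 2 and 2, without any other library 1 to 2 and 4 to 6, and with the GC correction 5 and 12. Reads of the CYP2C, CYP3A, UGT1A and UGT2B relatives were divided by estimate, so single members are uncertain.

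Of the conjugating enzymes of phase II, 11 of 36 tested (42 listed) fell and 5 rose with a median of -0.24 (8 and 4 without combined replicate 2, 13 and 4 with the GC correction). SULT2A1, which sulfates steroids and bile acids, was 20.6, 20.9 and 18.7 CPM in the controls, 7.34, 7.53 and 6.86 CPM with BX795 alone and 1.96 and 2.89 CPM with the combined treatment. The 3 groups did not overlap, and the combined libraries were lowest (-3.04 ± 0.17 against the controls, -1.56 ± 0.17 against BX795 alone). The glutathione transferase GSTA1 went from 130, 135 and 131 CPM to 56.9 and 54.9 CPM (-1.24 ± 0.09), and UGT2B4, a glucuronosyltransferase, from 27.7, 26.6 and 21.3 CPM to 5.03 and 7.35 CPM (-2.02 ± 0.19). UGT1A6 and UGT1A1, the enzyme that clears bilirubin, rose by 0.88 ± 0.10 and 0.64 ± 0.12. The other risers were UGT1A3 (1.09 ± 0.21), MGST1 (1.17 ± 0.16) and HNMT (0.52 ± 0.17), the last a call lost without combined replicate 2 (adjusted p = 0.399) or control replicates 2 or 3 (0.0923 and 0.0896). UGT2B7 stood at -0.07 ± 0.19 (adjusted p = 0.797). Against BX795 alone 7 members were lower (2 without combined replicate 1, 3 without BX795 replicate 2 or 3), and with the GC correction 9 were lower and 1 higher.

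Transporters fell in 12 of 22 tested cases (25 listed) and rose in 3, with a median of -0.53 (9 to 11 lower without any 1 library, 12 lower and 2 higher with the GC correction). SLC22A7, an anion importer of hepatocytes, was 5.43, 12.4 and 8.63 CPM in the controls and 0.538 and 0.357 CPM with the combined treatment, a wide gap (-4.30 ± 0.40). ABCG8, which exports sterols into bile, went from 10.3, 13.8 and 10.6 CPM to 1.34 and 1.43 CPM (-3.05 ± 0.19), and it was also lower than with BX795 alone (-1.50 ± 0.19). Its partner ABCG5 was 0.732, 1.14 and 0.326 CPM in the controls and had 0 counts in both combined libraries, at least 15.0-fold lower by a floor of 3 counts over the group, a call lost without combined replicate 2 (adjusted p = 0.0607). The phospholipid exporter ABCB4 (-1.40 ± 0.18) and the anion importer SLCO2B1 (-1.22 ± 0.17) fell. The risers were SLCO4A1 (2.33 ± 0.50), SLCO1B3 (0.77 ± 0.27) and ABCB11 (1.27 ± 0.45), with calls for SLCO1B3 lost without combined replicate 1 or 2 (adjusted p = 0.0935 and 0.209) and for ABCB11 without any 1 of the 5 libraries (adjusted p = 0.0708 to 0.275). Both calls were also lost with the GC correction (adjusted p = 0.336 and 0.0942). ABCB1, the drug efflux pump, fell by 0.45 ± 0.13, a call lost without combined replicate 1 or control replicate 2 (adjusted p = 0.268 and 0.0532), and it was lower than with BX795 alone (-0.98 ± 0.13). ABCC2 (-0.14 ± 0.12), ABCG2 (0.13 ± 0.28), SLC10A1 (0.04 ± 0.43) and SLCO1B1 (-0.02 ± 0.22) were not called.

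Among nuclear receptors and liver transcription factors, 14 of 31 tested (33 listed) fell and 3 rose with a median of -0.41 (11 to 16 lower without any 1 library, 13 and 4 with the GC correction). NR1I2, the drug receptor PXR that drives CYP3A4 in the liver, was 7.15, 10.4 and 7.82 CPM in the controls and 1.46 and 2.41 CPM with the combined treatment. It fell by 2.11 ± 0.27 (adjusted p = 0.000312) in the libraries in which CYP3A4 was high. CEBPA, a factor of hepatocyte maturity, went from 9.44, 13.8 and 16 CPM to 3.34 and 2.62 CPM (-2.13 ± 0.30), and HNF4A, a central hepatocyte factor, from 86, 104 and 78.4 CPM to 47.5 and 52.2 CPM (-0.85 ± 0.12). HNF4A was also lower than with BX795 alone (-0.62 ± 0.12), a call lost without combined replicate 1 or 2 (adjusted p = 0.173 and 0.0724) or BX795 replicate 2 or 3 (0.0597 and 0.083). CREB3L3, a liver factor of fasting and acute phase genes, fell by 2.43 ± 0.24. The vitamin D receptor VDR rose from 13.7, 16.1 and 11 CPM to 36.7 and 35.2 CPM (1.40 ± 0.13), beside the glucocorticoid receptor NR3C1 (0.90 ± 0.11) and RORA (0.87 ± 0.19, adjusted p = 0.0962 without combined replicate 2). AHR (-0.20 ± 0.15) and FOXA2 (-0.39 ± 0.14) did not pass (adjusted p = 0.317 and 0.0535), and NR1I3 had too few counts to be tested.

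**Figure D4:**
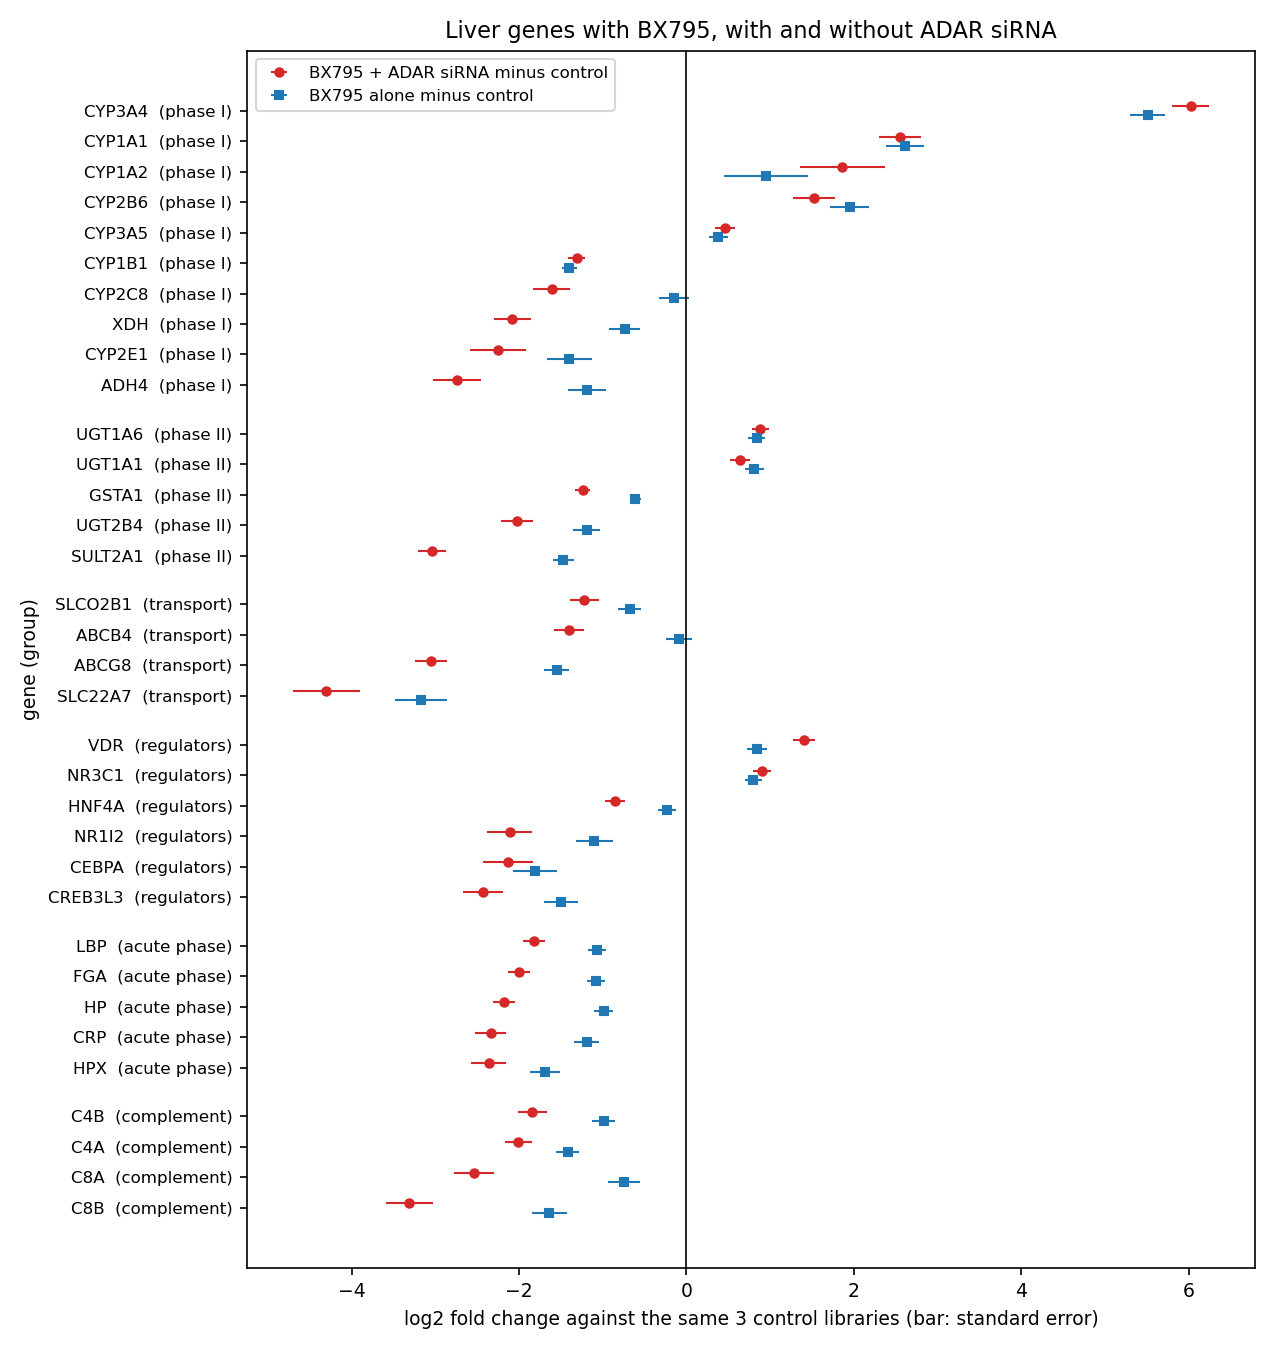
Log2 fold change (horizontal axis, bar for the standard error) of named liver genes with the combined treatment (red circles) and with BX795 alone (blue squares), both against the same 3 controls and grouped by function. CYP3A4 lies at 6.02 and 5.51, while SULT2A1, ABCG8, C8B and HP lie further to the left with the combined treatment.

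Acute phase proteins, the plasma proteins that hepatocytes release in inflammation, fell. Of 19 tested (20 listed) 16 fell and 1 rose (LCN2, 0.53 ± 0.10), with a median of -0.96, 14 to 16 lower without any 1 library and 17 lower with the GC correction. Summed over the list, levels were 11430 to 13025 CPM in the controls and 5286 to 6047 CPM with the combined treatment. HP, haptoglobin, was 2368, 2471 and 2170 CPM in the controls, 1275, 1105 and 1150 CPM with BX795 alone and 450 and 580 CPM with the combined treatment. The groups formed 3 separate steps, with log2 fold changes of -2.18 ± 0.13 against the controls (adjusted p = 5.42e-06) and -1.19 ± 0.13 against BX795 alone (adjusted p = 0.00065). LBP, which presents bacterial lipopolysaccharide, went from 502, 571 and 419 CPM to 133 and 149 CPM (-1.82 ± 0.13), and the C-reactive protein gene CRP from 9, 9.53 and 8.72 CPM to 1.46 and 2.08 CPM (-2.34 ± 0.19). Hemopexin, HPX, fell by 2.36 ± 0.21. Against BX795 alone 8 members were lower (3 without combined replicate 1, 8 to 10 without any other library, 12 with the GC correction). After ADAR siRNA without BX795, 2 members rose and 3 fell, beside 21.8% of all genes called in either direction. The difference between the responses was called lower for 14, beside 12.8% of all genes.

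Complement fell with them. Of 20 tested components (23 listed) 12 fell and 2 rose with a median of -0.81 (11 or 12 lower without any 1 library, 13 with the GC correction). C4A, a substrate of the classical pathway, went from 687, 1073 and 917 CPM to 234 and 210 CPM (-2.01 ± 0.16), and its near-identical copy C4B moved likewise (-1.84 ± 0.17), so the pair is uncertain one by one. C8B (-3.31 ± 0.28) and C8A (-2.54 ± 0.24), chains of the membrane attack complex, fell. The risers were CD55 (0.59 ± 0.12, a call lost without combined replicate 2 with adjusted p = 0.0762) and CD59 (0.95 ± 0.12), which protect cells from complement. Against BX795 alone 7 components were lower (2 without combined replicate 1, 10 with the GC correction).

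Markers of hepatocytes and of the other cells in the culture did not move as one. In bulk RNA, fewer cells of a type and less RNA per cell cannot be told apart. Of 32 tested hepatocyte markers (34 listed) 16 fell and 2 rose, with a median of -0.59 (12 to 18 lower without any 1 library, 14 and 3 with the GC correction). Albumin, ALB, was 7391, 8195 and 6851 CPM in the controls and 4025 and 4903 CPM with the combined treatment (-0.74 ± 0.11). FGA, a fibrinogen chain, went from 934, 1120 and 889 CPM to 215 and 274 CPM (-2.0 ± 0.13), and TDO2, which degrades tryptophan, from 68.6, 68.3 and 56 CPM to 8.45 and 13.6 CPM (-2.54 ± 0.18). All 3 genes were lower in both combined libraries than in any control. CPS1, the entry enzyme of the urea cycle (-1.14 ± 0.19), and MTTP, which loads lipid onto lipoproteins (-1.46 ± 0.15), fell. GLUL, glutamine synthetase, rose by 1.11 ± 0.10 and the thyroid hormone carrier TTR by 0.78 ± 0.12. SERPINA1 fell by 0.48 ± 0.13, a call lost with the GC correction (adjusted p = 0.0803) and without combined replicate 1 (adjusted p = 0.136), and APOA1 did not pass (-0.66 ± 0.30, adjusted p = 0.114). Against BX795 alone 8 hepatocyte markers were lower (3 without combined replicate 1), and with the GC correction 14 were lower and 1 higher.

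Of 12 tested biliary and progenitor markers (16 listed) 4 rose and 5 fell (2 and 3 without combined replicate 2 or with the GC correction), and their summed level was 587 to 687 CPM in the controls and 509 to 530 CPM with the combined treatment. The list median was -0.05, and of the members that fell only KRT19 is described here. Among the risers were the cholangiocyte keratin KRT7 (1.48 ± 0.17) and the progenitor factor SOX9 (0.67 ± 0.11). KRT19 was lower than in the controls (-0.53 ± 0.18), a call lost with the GC correction (adjusted p = 0.865) and without combined replicate 2 or control replicates 2 or 3 (adjusted p = 0.331, 0.14 and 0.151). It was higher than with BX795 alone (1.09 ± 0.17), a call lost without combined replicate 1 (adjusted p = 0.0802). Of 21 tested mesenchymal and matrix markers (24 listed) 10 fell and 3 rose (6 and 1 without combined replicate 2, 9 and 3 with the GC correction), with a summed level of 7981 to 9611 CPM in the controls and 7149 to 8432 CPM in the combined libraries. COL3A1, a fibrillar collagen, went from 106, 149 and 157 CPM to 28.8 and 20.4 CPM (-2.48 ± 0.23), and SPARC (-1.20 ± 0.10), DCN (-0.91 ± 0.10) and POSTN (-1.05 ± 0.13) fell. LOX (1.89 ± 0.49) and ACTA2 (0.33 ± 0.10) rose, both calls lost without combined replicate 2 (adjusted p = 0.166 and 0.212). Of 18 endothelial and immune markers 6 had enough counts to be tested, of which 3 fell and 1 rose with a median of -0.50 (2 and 1 without combined replicate 1 or with the GC correction). KDR, a receptor of endothelial growth factor, rose by 0.54 ± 0.09. The myeloid genes CD14 (-1.60 ± 0.21), CD68 (-0.64 ± 0.14) and LYZ (-2.63 ± 0.48) fell, with the call of CD68 lost without combined replicate 1 (adjusted p = 0.0672) and with the GC correction (adjusted p = 0.0846). The T cell and leukocyte genes PTPRC and CD3E and the endothelial genes CDH5, STAB2 and LYVE1 were at or near 0 counts, as was NKG7 in all libraries of the batch. The list's summed level of 484 to 543 CPM in the controls and 685 to 741 CPM in the combined libraries was mostly KDR. Its part in the other results was not tested.

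Bile acid and lipid genes were called in both directions, beside 16.9% of all genes higher and 16.0% lower. Of 18 tested genes of bile acid synthesis and control (21 listed) 7 fell and 4 rose (2 and 2 without combined replicate 2; 5 to 8 lower without any other library; 9 and 4 with the GC correction). CYP7B1, of the alternative synthesis route, went from 217, 167 and 178 CPM to 338 and 394 CPM (0.96 ± 0.12), while CYP7A1, which sets the rate of the main route, was at most 0.814 CPM in the controls and fell by 2.12 ± 0.66, a call lost without combined replicate 1 or 2 or control replicate 2 or 3 (adjusted p = 0.0667 to 0.209). KLB, the co-receptor of the gut hormone FGF19, fell by 1.79 ± 0.37, a call lost without combined replicate 2 (adjusted p = 0.0584). Cholesterol synthesis rose: 14 of 24 genes were higher and 1 lower, with a median of 0.42 (6 and 0 without combined replicate 2, 13 and 4 without control replicate 1, 16 and 0 with the GC correction). ACAT2 rose by 0.91 ± 0.10, IDI1 by 1.02 ± 0.16 and CYP51A1 by 0.59 ± 0.11. Fatty acid synthesis had 4 higher and 4 lower of 16 (2 and 2 without combined replicate 2, 5 and 2 with the GC correction). ELOVL5, an elongase of polyunsaturated fat, rose by 1.19 ± 0.17 and ACLY, which makes cytosolic acetyl-CoA, by 0.73 ± 0.10, while the fatty acid synthase FASN fell from 2819, 3581 and 3561 CPM to 1558 and 1130 CPM (-1.30 ± 0.16). Of 20 genes of fatty acid oxidation 7 fell and 3 rose (4 lower without combined replicate 1, 10 lower without control replicate 1, and 10 and 4 with the GC correction). FABP1, the fatty acid carrier of hepatocytes, fell by 3.13 ± 0.32.

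Of 17 genes repressed by insulin through FOXO factors 7 rose and 2 fell (5 and 1 without combined replicate 2; 9 and 2 with the GC correction). PDK4, which closes glucose oxidation, went from 48.9, 32.4 and 44.8 CPM to 141 and 148 CPM (1.78 ± 0.16), with 123, 148 and 148 CPM for BX795 alone. IGFBP1, a secreted binder of insulin-like growth factors, was 2.89, 6.31 and 6.76 CPM in the controls, 8.64, 8.11 and 7.16 CPM with BX795 alone and 24.5 and 18 CPM with the combined treatment. The combined libraries alone were high, by 2.03 ± 0.28 against the controls and 1.41 ± 0.27 against BX795 alone (adjusted p = 0.0139), the latter a call lost without combined replicate 1 (adjusted p = 0.173) or BX795 replicates 2 or 3 (0.0577 and 0.0733). TXNIP rose by 0.90 ± 0.12, and FBXO32 (-1.02 ± 0.11) and IRS1 (-0.44 ± 0.10, adjusted p = 0.0967 without combined replicate 2) fell. After ADAR siRNA without BX795 IGFBP1 stood at 0.95 ± 0.20 and PDK4 at -0.37 ± 0.11, and the difference between the responses was called higher for 13 members of the list and lower for 1, FBXO32 (7 and 1 without combined replicate 2).

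Targets of YAP and TEAD, the effectors of the Hippo pathway, rose in 10 of 16 cases and AXL fell (-0.72 ± 0.10), with a median of 0.51 (7 and 1 without combined replicate 2, 11 and 4 without control replicate 1, 9 and 1 with the GC correction). CCN2, a matricellular protein, was 210, 238 and 262 CPM in the controls, 359, 359 and 372 CPM with BX795 alone and 710 and 594 CPM with the combined treatment. It rose in 3 separate steps, 1.46 ± 0.11 above the controls and 0.84 ± 0.11 above BX795 alone. Its relative CCN1 rose by 0.76 ± 0.08 and ANKRD1 by 0.59 ± 0.09. Of 24 immediate early and MAP kinase feedback genes 9 rose and 3, FOSB, FOSL1 and JUN, fell (6 and 0 without combined replicate 2; 8 and 5 without control replicate 1; 14 and 2 with the GC correction). The ERK phosphatase DUSP5 rose by 1.03 ± 0.14, and was higher than with BX795 alone (0.70 ± 0.13), a call lost without any 1 of these libraries other than BX795 replicate 1 (adjusted p = 0.0606 to 0.132).

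Chaperones of the endoplasmic reticulum fell and the integrated stress response went both ways, beside 16.9% of all genes higher and 16.0% lower. Of 18 genes of the unfolded protein response 9 fell and 2 rose (DNAJC3 and SEL1L) with a median of -0.38 (6 and 0 without combined replicate 2, up to 4 higher without any other library, 12 and 2 with the GC correction). CALR, a calcium-binding chaperone, went from 822, 1059 and 987 CPM to 427 and 397 CPM (-1.22 ± 0.12), without overlap. HSPA5 (BiP), the master chaperone, went from 478, 490 and 488 CPM to 320 and 310 CPM (-0.62 ± 0.08), and HYOU1 (-0.79 ± 0.10), PDIA3 (-0.74 ± 0.09) and HSP90B1 (-0.61 ± 0.09) fell. After ADAR siRNA without BX795, 7 members rose, beside 21.8% of all genes called in either direction. The difference between the responses was called lower for 11, beside 12.8% of all genes. BX795 alone against the same controls had 2 members higher and 11 lower with a median of -0.66, beside 20.2% and 21.9% of all genes. The combined treatment against BX795 alone had 1 higher and 0 lower with a median of 0.23, beside 1.49% and 2.17% of all genes. With the GC correction these were 4 and 0. Of 18 genes of the integrated stress response 5 rose and 4 fell (3 and 0 without combined replicate 2; 4 and 8 without control replicate 1; 6 and 2 with the GC correction). The amino acid genes ASNS and SLC7A11 rose by 0.84 ± 0.14 and 1.25 ± 0.21 and the stress hormone GDF15 fell by 0.94 ± 0.20, the last a call lost without combined replicate 2 (adjusted p = 0.0614).

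**Figure D5:**
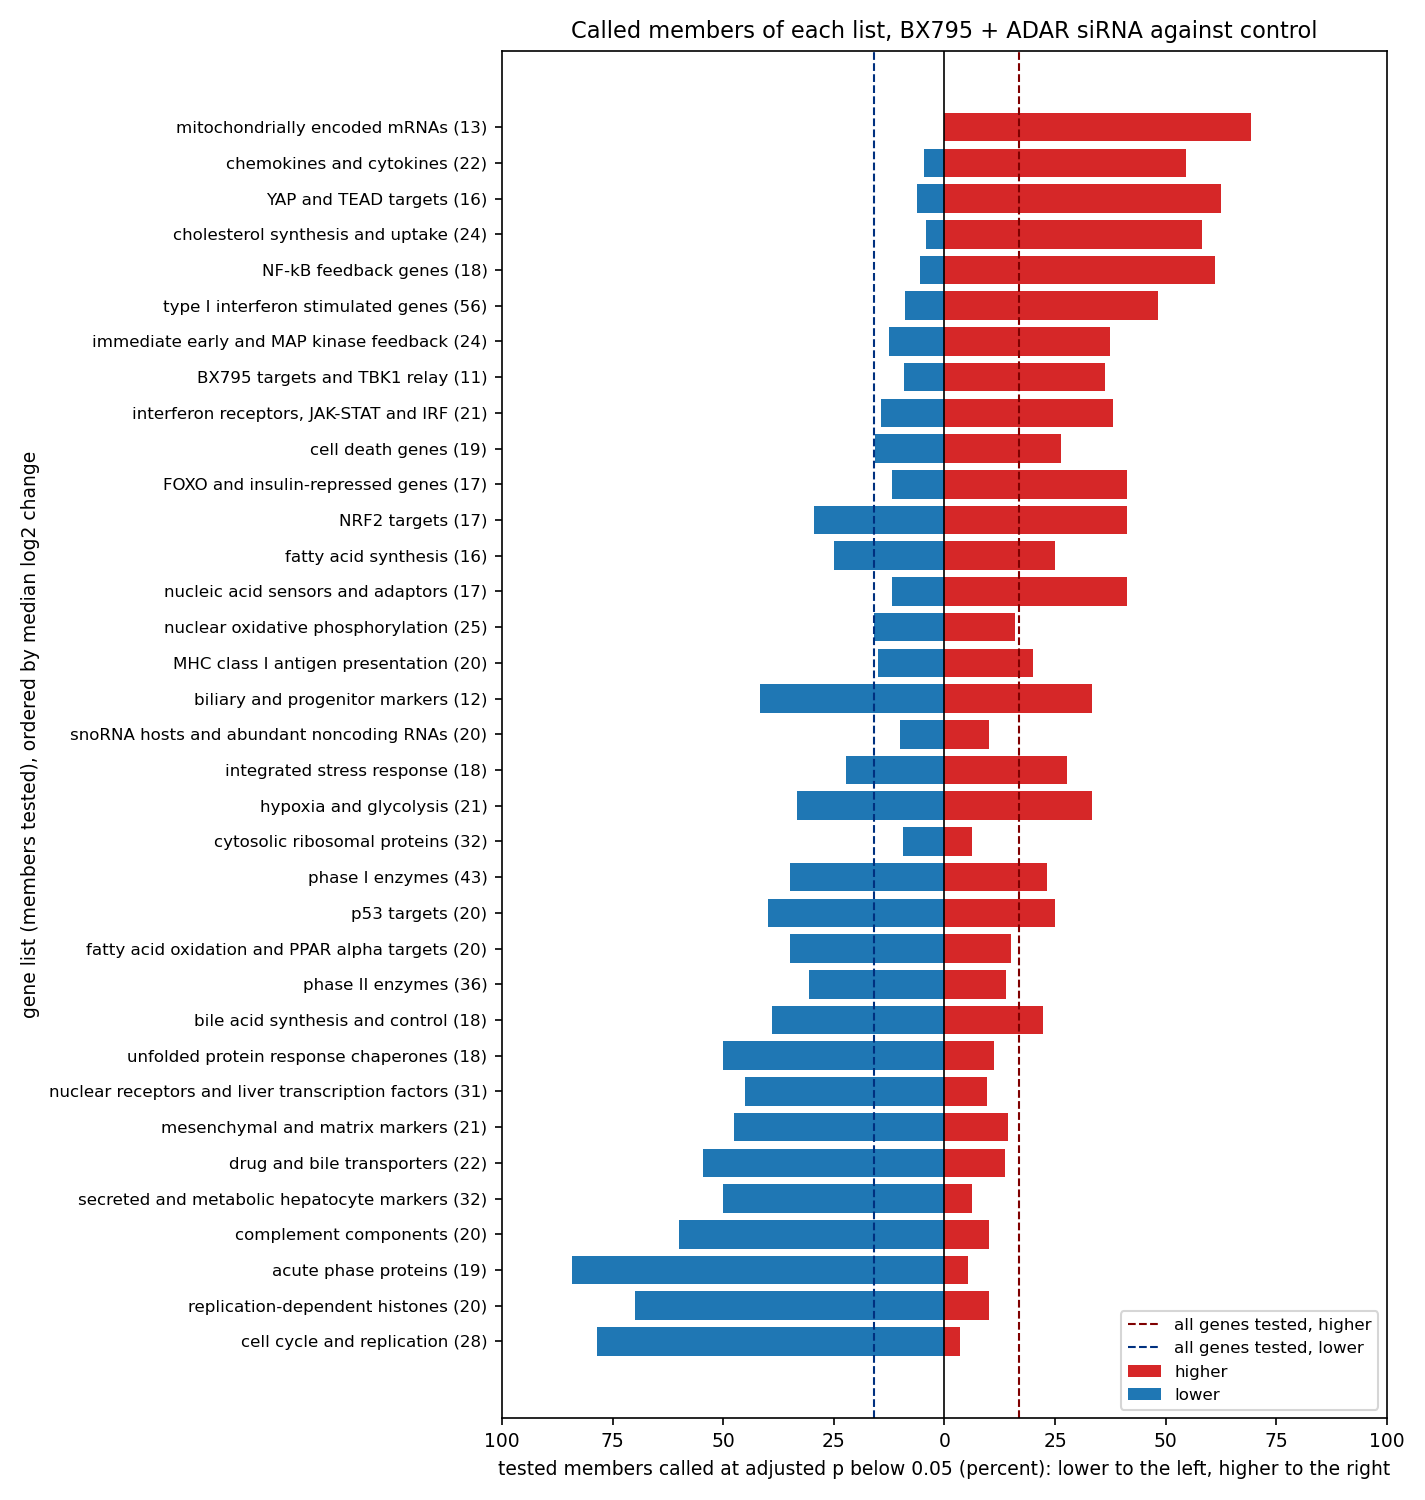
Percent of the tested members of each list (number in brackets) called higher (red, to the right) or lower (blue, to the left) with the combined treatment, ordered by median log2 fold change; dashed lines mark all genes tested, at 16.9% higher and 16.0% lower. Mitochondrially encoded mRNAs, chemokines and YAP targets lie at the top, and acute phase proteins, histones and cell cycle genes at the bottom.

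The largest rises of single genes, after CYP3A4, included matrix, immune and growth genes. MMP10, a stromelysin, was at most 0.163 CPM in the controls and 1.34 and 1.99 CPM with the combined treatment (4.29 ± 0.63). IL1RL1, the receptor of interleukin 33, was 49.4, 34.6 and 34.9 CPM in the controls, 292 and 338 CPM with the combined treatment and 396, 481 and 474 CPM with BX795 alone. All libraries with BX795 were high, and the combined rise was 2.98 ± 0.17. CLEC4E, a receptor for damaged cells and mycobacteria, rose by 3.23 ± 0.26, the nuclear receptor NR4A3 by 3.02 ± 0.33, the prostaglandin transporter SLCO2A1 by 2.74 ± 0.23, FGFBP1, which releases fibroblast growth factors from the matrix, by 3.08 ± 0.59, and CXCL11 by 2.77 ± 0.32. ZNF709, TARID and NPY4R2 rose by 3.23 ± 0.56, 2.82 ± 0.49 and 3.29 ± 1.09. The call of NPY4R2 was lost without control replicates 2 or 3 (edgeR adjusted p = 0.107 and 0.0967). It was also lost without combined replicate 2, where the value was 2.84, and it held with the GC correction (edgeR adjusted p = 0.03). RRN3P3, a pseudogene whose reads cannot be told from its parent with certainty, had 0 counts in the controls and 0.96 and 1.10 CPM with the combined treatment, at least 17.4-fold higher.

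The largest falls included MUC5B, an airway and bile duct mucin, at 1.81, 3.49 and 2.77 CPM in the controls and 0.0384 and 0.0893 CPM with the combined treatment (-5.22 ± 0.54). SPSB4, an adaptor of ubiquitin ligases, went from 12.8, 17 and 14.8 CPM to 0.883 and 0.714 CPM (-4.22 ± 0.23), and the sodium channel gene SCN1A from 2.93, 3.56 and 2.61 CPM to 0.23 and 0.0893 CPM (-4.27 ± 0.45). In these 3 genes the groups were more than an order of magnitude apart. The helicase PIF1 (-5.16 ± 0.66), SLC22A7 with the value above, the inhibitory immune receptor LAIR1 (-3.87 ± 0.53), the lactoferrin gene LTF (-3.82 ± 0.49) and the retinol dehydrogenase RDH16 (-3.73 ± 0.46) fell. FOXO6 fell by 5.07 ± 0.97, a call lost without combined replicate 2 (adjusted p = 0.0504). The histone copy H3C15 was 26.8, 51.4 and 32.1 CPM in the controls and 0 and 4.79 CPM in the combined libraries (-3.85 ± 0.81), SLC2A3P1, a pseudogene, went from 2.97, 6.18 and 3.99 CPM to 0 counts in both combined libraries (at least 83.0-fold lower), and POLGARF, a call lost without combined replicate 2 or control replicates 2 or 3 (adjusted p = 0.24, 0.079 and 0.135), shares its transcript with POLG. All 3 are uncertain because of reads shared with relatives or overlapping genes.

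Against BX795 alone the largest differences were partly returns towards the controls. ALPP, placental alkaline phosphatase, was 128, 148 and 176 CPM in the controls, 13.6, 11.8 and 12.6 CPM with BX795 alone and 70.8 and 55.3 CPM with the combined treatment. The combined libraries lay between the other groups, 2.31 ± 0.15 above BX795 alone and -1.26 ± 0.15 against the controls. The imprinted RNA H19 had the same order, at 11, 17.1 and 15.4 CPM, 1.12, 1.05 and 0.726 CPM and 4.26 and 2.98 CPM (1.91 ± 0.32 above BX795 alone, adjusted p = 0.0814 without combined replicate 1). FGFBP1 (2.25 ± 0.52, a call lost without any 1 of the 5 libraries with adjusted p = 0.074 to 0.214) and MX2 exceeded both other groups. TUBA3E was higher by 1.89 ± 0.27. RDH16 (-2.80 ± 0.46), CASP14, a protease of cornified skin (-2.61 ± 0.30), and the chemokine receptor CCR2 (-2.24 ± 0.36) were lower, and without combined replicate 1 the calls of RDH16 and CCR2 were lost (adjusted p = 0.0802 for each). CASP14 was 2.15, 2.48 and 1.55 CPM in the controls, 4.23, 4.77 and 4.85 CPM with BX795 alone and 0.998 and 0.536 CPM with the combined treatment, so it lay on opposite sides of the controls in the treated groups. GTF2IP1, a pseudogene with close relatives, had 0 counts in the controls and the combined libraries and 7.53, 8.18 and 14 CPM with BX795 alone, and is uncertain.

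By the naming rule, the largest differences from the ADAR siRNA response without BX795 were TARID (4.13 ± 0.91), CYP3A4, LRRC53 (3.63 ± 0.74, adjusted p = 0.388 without combined replicate 2) and MMP10 (3.41 ± 0.83) on the higher side. FAM223B led that side and ABCG5, MBL2, KRT14, RPL23AP82 and TMEM82 the lower side, and each of these had 0 counts in every library of a group or fewer than 1 CPM in both groups of the combined comparison, so their fitted values are no bounds and are not printed. TARID, an antisense RNA, was 0.259, 0.134 and 0.326 CPM in the controls and 1.42 and 1.99 CPM with the combined treatment.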

How the data were processed

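RNA depleted of ribosomal RNA was sequenced from 19 HepaRG libraries with a directional kit, per the labels' protocols. The authors deposited 1 table of expected counts per gene and library (78894 genes, 61463 with a symbol), not normalised. STAR, Salmon and the build GRCh38.p14 are named in the submitters' processing notes, with no version or role for either tool in the sources used here. Of the deposited values, 94.82% lay within 0.005 of a whole number, and all were rounded to whole counts. Reads of overlapping or near-identical genes are divided by estimate, so such genes are uncertain.

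The 10 libraries of batch 2 (the control, interferon, BX795 and combined arms) were fitted together in R 4.3.3 with edgeR 4.0.16 (filterByExpr, TMM scaling, 1 mean per group, quasi-likelihood F test), giving 20718 tested genes, 6 residual degrees of freedom and a biological coefficient of variation of 14.2%. Genes were called at a Benjamini-Hochberg adjusted p below 0.05 over the tested genes. The difference from the ADAR siRNA response was fitted on all 19 libraries (23122 genes, 12 residual degrees of freedom). CPM values are counts per M counts of a library after scaling, in the batch 2 fit, and those of the other batch come from the fit of all 19 libraries. Totals over the series were 13.1 to 77.1 M counts. GC content came from GENCODE release 29 transcripts, for 18393 (88.8%) of the tested genes, and the GC correction entered each library's loess trend on GC as an offset. Fits were tested on simulated data. Gene coordinates and promoters are from RefSeq (GRCh38.p14).

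Alternatives were DESeq2 1.42.0, its size factors in edgeR, other filters, other sets of libraries, the GC correction, a replicate block and leaving out each library. The 38 gene lists, the 75 panel genes and the libraries compared were chosen with earlier results of these data known. Genes were named by rule. The rule took ADAR and ADARB1, the panel, and up to 5 called members of each list with the smallest p. It also took the 12 largest rises and 12 largest falls among called genes with at least 1 CPM in a group and no overlap between libraries, and the 5 and 5 of the other comparisons. For the difference from the ADAR siRNA response no overlap condition could be applied. A fold against a group at 0 counts used a floor of 3 counts over the group. Some genes that the rule selected are not reported here.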

Additional observations from a re-analysis of the deposited data

How the results depend on the processing

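The count of genes called with the combined treatment was 6829, and it was 4454 when the fit held only the groups compared, 3955 with a replicate block, 4249 with the replicate block and GC correction together, and 1982 to 8553 when single libraries were left out. Against BX795 alone it was 758, and it was 1264 with DESeq2, 1916 with the GC correction, 2201 with all 19 libraries, 1250 without an expression filter, 282 with the replicate block and 181 to 452 when single libraries were left out. For the difference from the ADAR siRNA response it was 6649, and 3121 to 8648 when single libraries were left out. The other settings stayed within 1.5 times of these counts, which does not mean that they called the same genes. With the GC correction 4352 of the 6829 combined calls were shared.

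Directions turned for 3 named genes with values near 0: AZI2 (-0.01) and KRT19 (0.02) with the replicate block and GC correction, and RPL7 (-0.07) with the GC correction, with or without the block. Of 228 named genes called with the combined treatment, 4 lost the call with DESeq2, 24 with the GC correction, 27 with the replicate block and 54 without combined replicate 2. Same-numbered control and combined libraries deviated from their group means with correlations of -0.218 and -0.0924, and same-numbered BX795 and combined libraries with 0.206 and 0.208. With 2 pairs and no label that ties the numbers to a shared origin, the numbers were not taken to pair the libraries. Depth limits the low genes: at 13.1 M counts, 1 CPM is about 13 counts.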

Other observations

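Mitochondrially encoded mRNAs were higher with the combined treatment than in the controls. Of 13 tested 9 rose, with a median of 0.88 on the log2 scale beside -0.03 for all genes, and the GC correction gave the same count. MT-CO1, a subunit of cytochrome oxidase, was 15092, 8144 and 9286 CPM in the controls and 20039 and 28629 CPM in the combined libraries. Both combined libraries were above every control, with a log2 fold change of 1.17 ± 0.25 (edgeR adjusted p = 0.00513), and with BX795 alone it was 21709, 25911 and 23934 CPM. The count rested on combined replicate 2: without it 1 member was called and MT-CO1 had an adjusted p of 0.0788. These mRNAs took 1.62% to 3.2% of counts in the controls and 3.86% to 5.48% in the combined libraries, groups that did not overlap (two-sided exact permutation p = 0.1, the smallest that 2 against 3 libraries allow). Of 25 nuclear genes of oxidative phosphorylation 4 rose and 4 fell (3 and 3 with the GC correction), beside 16.9% and 16.0% of all genes. These calls were lost without combined replicate 2, where the list median was -0.06.

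Among 17 tested targets of NRF2, a factor of the oxidative stress response, 7 rose and 5 fell (5 and 3 without combined replicate 2, 6 and 4 with the GC correction). FTH1, the heavy chain of the iron store ferritin, was 3127, 3195 and 3418 CPM in the controls, 3751, 3367 and 3314 CPM with BX795 alone and 1533 and 1714 CPM with the combined treatment. Only the combined libraries were low, with a log2 fold change of -1.0 ± 0.10 against the controls (edgeR adjusted p = 7.64e-05) and -1.10 ± 0.10 against BX795 alone (adjusted p = 0.000426). TXNRD1, a reductase of thioredoxin, was 1317, 1193 and 1332 CPM in the controls, 1294, 1351 and 1330 CPM with BX795 alone and 2131 and 2210 CPM with the combined treatment. It was high in the combined libraries alone, by 0.76 ± 0.09 against the controls and 0.71 ± 0.09 against BX795 alone (adjusted p = 0.000166 and 0.00126). FTH1 and TXNRD1 were the 2 members of the list called against BX795 alone (5 higher and 2 lower with the GC correction), and both calls against the controls held with the GC correction.

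Of 20 p53 targets 5 rose and 8 fell, with a median of -0.19, beside 16.9% and 16.0% of all genes. With the GC correction 3 rose and 5 fell, and without combined replicate 2 edgeR called none (10 at an unadjusted p below 0.05). Of 20 genes of MHC class I antigen presentation 4 rose and 3 fell (11 and 3 with the GC correction, 1 and 3 without combined replicate 2). B2M, its light chain, went from 1578, 1256 and 1409 CPM to 2073 and 2554 CPM (0.71 ± 0.12), with 2147, 2423 and 2384 CPM for BX795 alone. Of 32 cytosolic ribosomal protein genes 2 rose and 3 fell, 3 and 11 without control replicate 1 and 3 and 4 with the GC correction, and edgeR called none without combined replicate 2 (3 at an unadjusted p below 0.05). Of 19 cell death genes 5 rose and 3 fell (2 higher without combined replicate 2, the same counts with the GC correction), of 21 genes of hypoxia and glycolysis 7 and 7 (2 and 4 without it, 5 and 7 with the GC correction). Of 5 tested metallothioneins 2 fell, MT1F, a call lost without combined replicate 2 (adjusted p = 0.121), and MT1X, a call lost without combined replicate 1 or control replicate 2 and with the GC correction. With that correction 1 rose and 1 fell. Among 20 host genes of snoRNAs and abundant noncoding RNAs 2 rose and 2 fell, and 4 and 4 with the GC correction. Every list count in this paragraph stands beside 16.9% and 16.0% of all genes, or 14.8% and 13.7% with the GC correction.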
